A study of Mus musculus with 24 samples.

Results

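The genes described here are Pou3f1, Otx2, Zic2, Zic5, Sall2 and Foxd3, transcription factors of the postimplantation epiblast and the early neural plate, and Fgf5, a secreted growth factor. They were chosen by name, with earlier results of these data known. Their probe sets were all those that the platform annotation gives to 1 of these genes alone. This gave 7 genes of 18193 and 11 probe sets of 45101. Expression was measured in undifferentiated embryonic stem cells of the 129/Sv mouse strain, cultured cells taken from the early embryo, on 24 Affymetrix MG 430 2.0 arrays. All groups share this strain and differ at the huntingtin gene Htt, formerly Hdh, in which a long CAG tract causes Huntington's disease in people. The 6 control arrays had the genotype 7/7, which means 7 CAG repeats on each allele, and the 6 knock-out arrays the genotype null. 4 knock-in lines had 3 arrays each, with 7 repeats on 1 allele and, on the other, 16 for Q20, 45 for Q50 except 43 for its replicate 3, 85 for Q91 and 111 for Q111. The description field of the labels names the control and knock-out arrays the other way round from the titles and genotypes, which were followed here. Each array is called a biological replicate, but the sources used here do not say whether that means another clone or another dish of the same cells. The p-values therefore measure only the spread between these arrays.

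Mouse embryonic stem cells resemble the naive epiblast of the blastocyst. As the epiblast implants it passes through a formative to a primed state, in which naive factors such as Klf4 and Esrrb are turned down while Pou5f1 and Sox2 stay on. Fgf5 is the classic marker of this transition, Otx2 is a homeodomain factor that redirects Pou5f1 to new enhancers, and Pou3f1, also called Oct6, is a POU-domain factor of primed cells and of cells entering the neural lineage. Zic2 and Zic5 are zinc-finger factors encoded by neighbouring genes, Sall2 is a spalt-like zinc-finger factor, and Foxd3 is a forkhead factor needed for pluripotent cells and for neural crest.

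Promoter sequences were taken from RefSeq (build GRCm38.p6) as the 250 bases before an annotated transcription start, written 5′ to 3′ on the strand of the gene. The table held 9 such windows for 5 of the 7 genes, Fgf5, Otx2, Zic5, Sall2 and Foxd3. Windows are shown for Fgf5, Zic5 and Sall2, whose values varied together between arrays, for Foxd3, which did not follow them, and a 30-base stretch for Otx2, whose own kind of recognition motif it holds. Capitals mark matches to the 6 motifs searched on both strands.
Fgf5, chr5:98253934-98254183, plus strand: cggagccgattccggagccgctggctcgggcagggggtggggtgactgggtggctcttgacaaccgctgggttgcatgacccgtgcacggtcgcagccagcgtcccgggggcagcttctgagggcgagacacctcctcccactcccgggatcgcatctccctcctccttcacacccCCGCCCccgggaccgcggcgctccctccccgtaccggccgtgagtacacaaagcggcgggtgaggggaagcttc
Zic5, chr14:122465659-122465908, minus strand: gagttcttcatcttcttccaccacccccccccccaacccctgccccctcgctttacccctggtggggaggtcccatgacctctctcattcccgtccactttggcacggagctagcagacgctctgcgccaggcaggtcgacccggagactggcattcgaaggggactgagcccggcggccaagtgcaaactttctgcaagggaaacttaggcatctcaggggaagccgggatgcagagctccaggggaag
Sall2, most upstream start, chr14:52328671-52328920, minus strand: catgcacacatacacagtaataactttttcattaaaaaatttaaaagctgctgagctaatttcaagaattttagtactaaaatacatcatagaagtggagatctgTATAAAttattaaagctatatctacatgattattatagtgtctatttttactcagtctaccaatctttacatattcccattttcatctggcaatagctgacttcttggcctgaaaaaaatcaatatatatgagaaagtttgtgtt
Foxd3, chr4:99656049-99656298, plus strand: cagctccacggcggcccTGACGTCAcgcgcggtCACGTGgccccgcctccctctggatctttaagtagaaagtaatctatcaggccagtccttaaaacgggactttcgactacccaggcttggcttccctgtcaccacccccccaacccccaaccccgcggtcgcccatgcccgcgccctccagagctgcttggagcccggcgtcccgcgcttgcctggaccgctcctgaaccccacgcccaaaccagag
Otx2, stretch around the Otx-type match, chr14:48665303-48665332, minus strand: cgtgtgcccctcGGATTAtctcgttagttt
The motifs were the Otx-type core TAATCC, the octamer ATGCAAAT bound by POU factors, the TATA box TATAAA, the E-box CACGTG, the CRE TGACGTCA and the GC box GGGCGG. Of 32851 windows of the same length in the table, 6.25% held the Otx-type core, 1.6% the octamer, 12.4% the TATA box, 6.02% the E-box, 1.55% the CRE and 32.7% the GC box. The Fgf5 window held a GC box at position -74 from the start, and the Sall2 window a TATA box at -145. Foxd3 had a CRE at -233 and an E-box at -217, which did not overlap. The Otx-type core of Otx2 lay at -211 from a start downstream of the most upstream one. No octamer was found in any of the 9 windows, and the Zic5 window held none of the 6 motifs. CG dinucleotides numbered 24 in the Fgf5 window, 21 in Foxd3, 11 in Zic5 and 0 in the Sall2 window shown, against a median of 6 over all windows. These matches describe the letters only.

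Values are log2 expression after GCRMA, in which 1 unit is a doubling, and a probe set was tested if at least 3 of the 24 arrays reached 5. Differences were tested with limma on all 17980 probe sets past this filter, and a call is a Benjamini-Hochberg adjusted p under 0.05 over all of them. Of the 11 probe sets, 10 were tested, and for a gene with more than 1 the values are those of its strongest, by the mean of the 24 arrays, unless said otherwise. Fgf5 and Zic2 passed the filter only through knock-in arrays: none of the 12 control and knock-out arrays reached 5 for either. The Htt probe set, whose place relative to the deleted part no source used here states, read 8.01 ± 0.29 (SD, n = 6) in control and 7.21 ± 0.27 (SD, n = 6) in the knock-out (change -0.80, limma adjusted p = 0.00195). It was also lower in Q91 (-1.05, adjusted p = 5.65e-04) and Q111 (-0.79, adjusted p = 0.00445), so it does not separate the knock-out from the knock-in lines. The difference between 3′ and 5′ Actb control probe sets, a sign of RNA quality, was 1.54 on Q50 replicate 3 and 0.75 to 1.03 on the other arrays. The median of 575 chromosome 14 probe sets, the chromosome of Otx2, Zic2, Zic5 and Sall2, lay 0.35 to 0.54 above the control mean on every knock-out array, with controls at -0.23 to 0.13 and knock-in arrays at -0.21 to -0.03. The medians of chromosomes 4 and 5, which carry Pou3f1 and Foxd3 and Fgf5, stayed between -0.12 and 0.14 on every array.

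**Figure D1:**
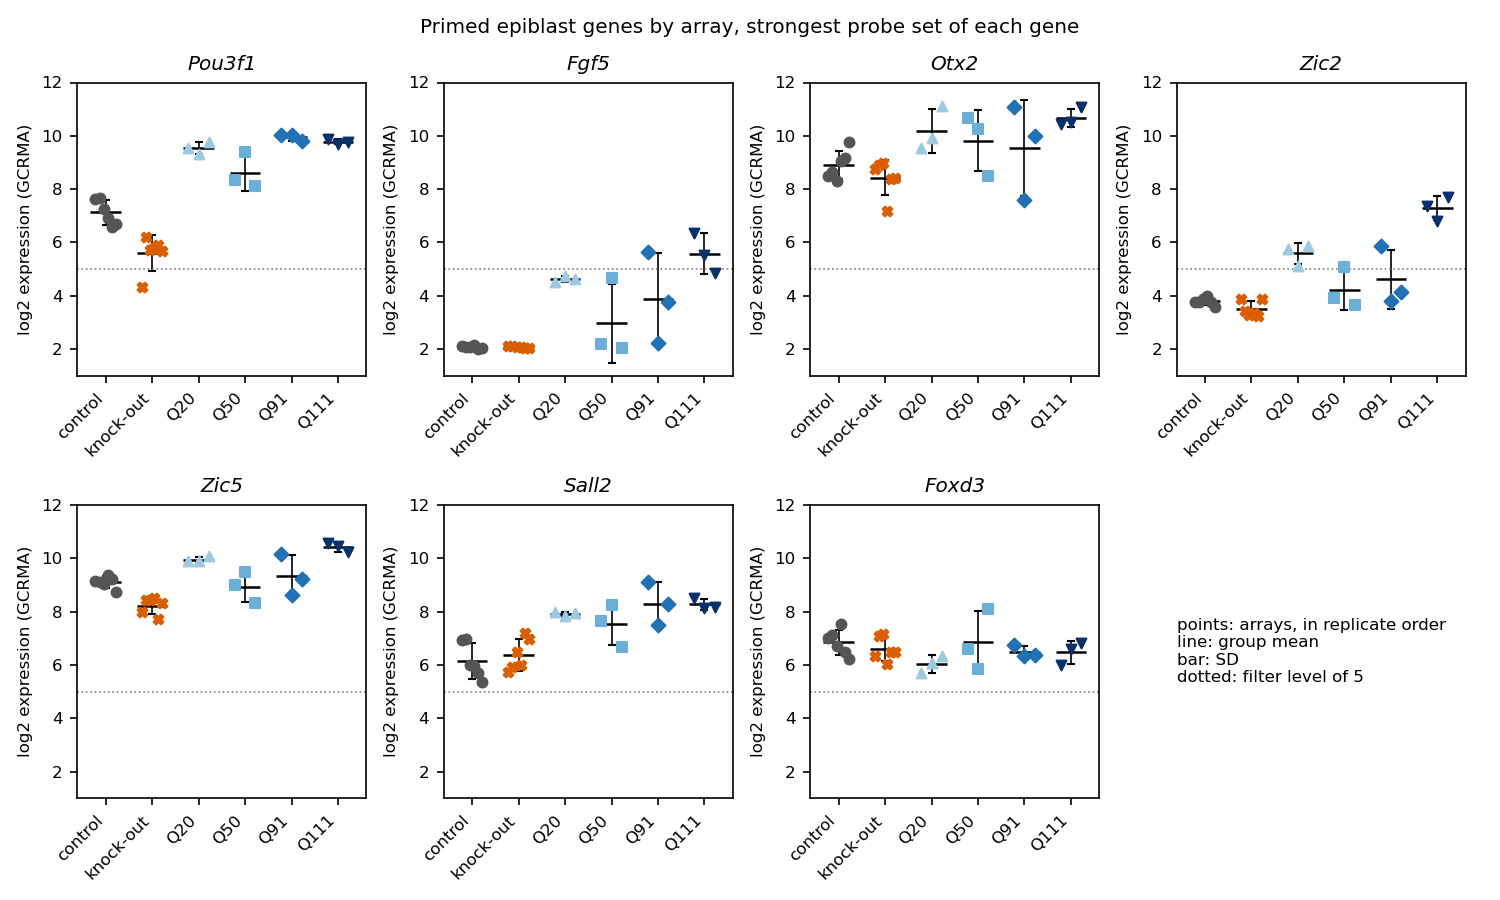
Each panel plots the log2 expression (GCRMA) of a gene's strongest probe set on the 24 arrays by group, with the group mean as a line, the SD as a bar and the filter level of 5 dotted. Pou3f1 is lowest in the knock-out arrays (4.31 to 6.22) and highest in the knock-in arrays (8.11 to 10.02), and Fgf5 stays between 2.00 and 2.15 in all control and knock-out arrays.

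Pou3f1 moved in both directions from control. It was lower in the knock-out and higher in all 4 knock-in lines, and on its strongest probe set no group overlapped with control. On the control arrays it read 7.64, 7.67, 7.26, 6.93, 6.58 and 6.70 in replicate order, and on the knock-out arrays 4.31, 6.22, 5.71, 5.78, 5.91 and 5.68. Every knock-out array was below every control array, as on 5.55% of all probe sets, and replicate 1 was the lowest by over 1 unit. Q20 read 9.55, 9.33 and 9.78, Q50 read 8.33, 9.39 and 8.11, Q91 read 10.02, 10.02 and 9.79, and Q111 read 9.89, 9.68 and 9.77. The order of the means was knock-out 5.60 ± 0.66 (SD, n = 6), control 7.13 ± 0.47 (SD, n = 6), Q50 8.61 ± 0.68, Q20 9.55 ± 0.23, Q111 9.78 ± 0.11 and Q91 9.94 ± 0.13 (SD, n = 3 each). In that order each pair of neighbouring lines overlapped, while Q20 (up to 9.78) and Q91 (from 9.79) just failed to. Here and below, shares of probe sets without overlap were counted only against control, and not between lines. On the second probe set Q20 read 9.08 to 9.17 and Q91 9.43 to 10.11, again without overlap, and Q50 (7.70 to 9.04) lay below the other lines.

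The knock-out difference was -1.53 (SE 0.27), 2.89-fold lower, with a limma adjusted p of 7.98e-04. Across all probe sets 14.6% were called in this comparison, 7.42% higher and 7.17% lower. Q20 was 2.42 (SE 0.33) above control, Q50 1.48 (SE 0.33), Q91 2.81 (SE 0.33) and Q111 2.65 (SE 0.33), with limma adjusted p-values of 4.36e-05, 0.00953, 6.06e-06 and 1.34e-05. Q91 was thus 7.03-fold above control and Q50 2.78-fold. The second Pou3f1 probe set gave -0.95, 2.92, 1.99, 3.52 and 3.11 in the same order, all called, and correlated with the first at r = 0.98 over the 24 arrays. On it 5 of the 6 knock-out arrays were below all controls. All 12 knock-in arrays lay above all 6 controls on both Pou3f1 probe sets, which was so for 2.61% of all probe sets. On the strongest probe set the Q50 call was lost without Q50 replicate 2 (1.09, adjusted p = 0.0771).

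Otx2 was higher in Q111 than in control, and the knock-out and the other lines did not pass the test. Control arrays read 8.50, 8.66, 8.30, 9.05, 9.15 and 9.77, and knock-out arrays 8.77, 8.89, 8.97, 7.19, 8.38 and 8.40. These ranges overlapped, with knock-out replicate 4 the lowest of the 24 arrays. Q20 read 9.55, 9.91 and 11.12, Q50 read 10.67, 10.26 and 8.51, Q91 read 11.07, 7.58 and 9.99, and Q111 read 10.45, 10.51 and 11.07. All Q111 arrays were above all controls, as on 17.6% of all probe sets, while Q50 replicate 3 lay within the control range and Q91 replicate 2 below it. Group means ran from 8.44 ± 0.66 in the knock-out through 8.90 ± 0.53 in control, 9.55 ± 1.78 in Q91, 9.81 ± 1.14 in Q50 and 10.19 ± 0.82 in Q20 to 10.68 ± 0.34 in Q111 (SD), and each neighbouring pair overlapped. The Q111 difference was 1.77 (SE 0.59, limma adjusted p = 0.0301), 3.42-fold. Leaving out any 1 of 6 arrays (control replicates 1 to 3 or each Q111 array) ended this call, with values from 1.58 to 1.89 and adjusted p from 0.0509 to 0.104. Differences without a call were -0.47 in the knock-out (adjusted p = 0.573), 1.29 in Q20 (0.114), 0.91 in Q50 (0.351) and 0.64 in Q91 (0.477). The Q20 difference ran from 0.82 without Q20 replicate 3 to 1.61 without replicate 1. It was called with array weights (1.11, adjusted p = 0.0385), with only control and Q20 in the fit (1.29, 0.0351) and without Q91 replicate 2 (1.29, 0.0459). Array weights raised the calls over all probe sets in Q20 from 25.2% to 40.5%. Otx2os1, transcribed from the opposite strand beside Otx2, read 2.95 to 3.16 in every group.

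Zic2, dim in control, reached its highest values in Q111. Its 6 control arrays read 3.58 to 3.98 (median 3.78) and its 6 knock-out arrays 3.25 to 3.88 (median 3.38). Both ranges lie under the filter level, so a difference between these groups is one between dim values. Q20 read 5.75, 5.13 and 5.88, Q50 read 3.92, 5.09 and 3.65, Q91 read 5.86, 3.82 and 4.15, and Q111 read 7.35, 6.80 and 7.70. Q111 did not overlap with any other group, Q20 did not overlap with control, and in Q50 and Q91 a single array reached 5. Over all probe sets, every array lay above every control array on 17.6% in Q111 and on 16.5% in Q20. The share with Q111 clear of every other group was not counted. Differences from control were 3.50 (SE 0.34, limma adjusted p = 1.08e-06) in Q111 and 1.79 (SE 0.34, adjusted p = 8.77e-04) in Q20. They were 0.82 in Q91 (adjusted p = 0.0944), 0.43 in Q50 (0.470) and -0.28 in the knock-out (0.560), none of them called. The Q91 difference was 0.20 without Q91 replicate 1 and 1.22, with a call (adjusted p = 0.0345), without replicate 2. Since control values are near the dim end of the scale, these log2 differences are not given as folds. Zic2 passed the filter only through knock-in arrays, so its p-values are given as a description.

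Zic5, the neighbour of Zic2, was lower in the knock-out and higher in Q20 and Q111 on each of its 3 probe sets. On the strongest, control arrays read 9.15, 9.13, 9.04, 9.37, 9.23 and 8.74 and knock-out arrays 7.98, 8.43, 8.42, 8.51, 7.71 and 8.31. Every knock-out array was below every control array on all 3 probe sets, as on 5.55% of all probe sets. Q20 read 9.89, 9.89 and 10.07, Q50 read 8.99, 9.49 and 8.34, Q91 read 10.17, 8.64 and 9.24, and Q111 read 10.56, 10.45 and 10.24. The means rose from the knock-out (8.22 ± 0.31) through Q50 (8.94 ± 0.58), control (9.11 ± 0.21), Q91 (9.35 ± 0.77) and Q20 (9.95 ± 0.10) to Q111 (10.41 ± 0.16, all SD). Q111 stood clear of Q20, a separation whose share over all probe sets was not counted, while control, Q50 and Q91 overlapped.

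The knock-out difference of Zic5 was -0.89 (SE 0.21, limma adjusted p = 0.00769), 1.85-fold lower, and -1.31 and -0.90 on the other probe sets. Q20 was 0.84 (SE 0.26, adjusted p = 0.0217) and Q111 1.30 (SE 0.26, adjusted p = 9.61e-04) above control. Q50 at -0.17 (adjusted p = 0.729) and Q91 at 0.24 (0.556) were not called. The Q20 call was lost without any 1 of the 3 Q20 arrays (0.78 to 0.87, adjusted p 0.0563 to 0.0732). Since the other chromosome 14 probe sets stood higher on the knock-out arrays, the values were also centred on the median of each chromosome, which gave -1.34 (adjusted p = 7.44e-04) for Zic5 in the knock-out. Centred in the same way, the knock-out differences of Otx2 (-0.92, adjusted p = 0.238), Zic2 (-0.74, 0.0999) and Sall2 (-0.22, 0.705) were also further down, and none was called. The plot of these genes against the chromosome median shows the same by array.

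**Figure D2:**
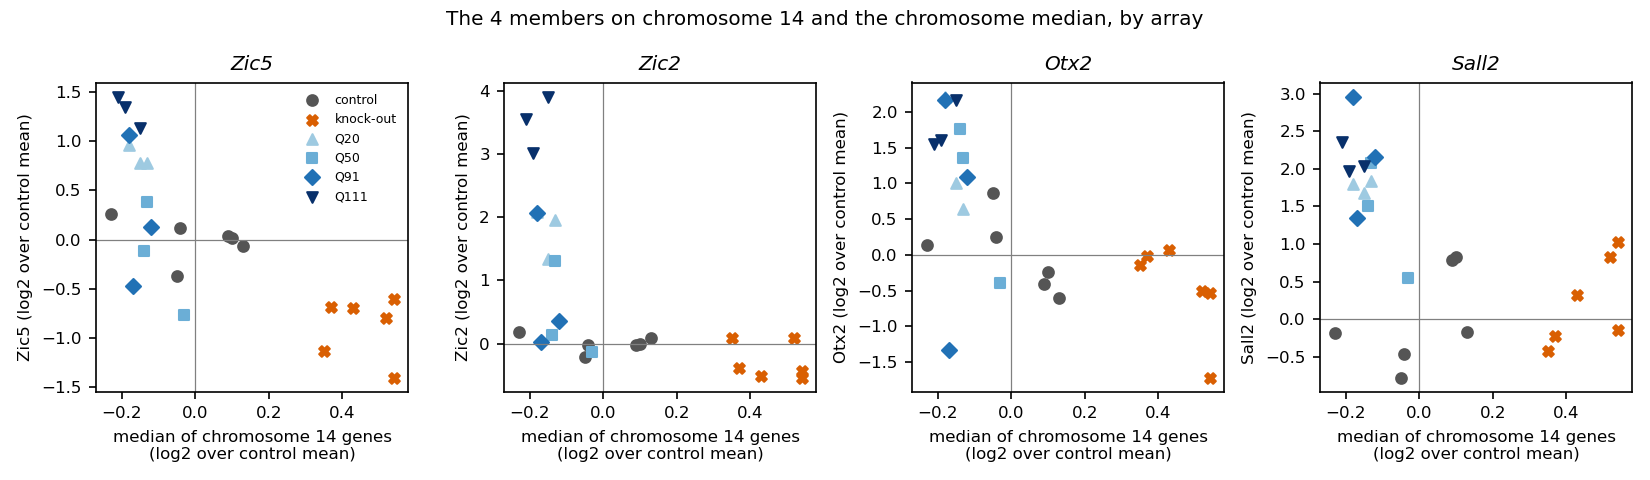
Each panel plots, for the 24 arrays, the log2 difference of Zic5, Zic2, Otx2 or Sall2 from the control mean (vertical axis) against the median log2 difference of 575 other chromosome 14 probe sets (horizontal axis). The 6 knock-out arrays lie at 0.35 to 0.54 on the horizontal axis, and there Zic5 is below 0 on every one of them.

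Sall2 was higher in all 4 knock-in lines and did not pass the test in the knock-out. Control arrays read 6.93, 6.97, 5.98, 5.96, 5.68 and 5.37, and knock-out arrays 5.73, 5.92, 6.47, 6.01, 7.18 and 6.97. These ranges overlapped, with high and low arrays in both groups. Q20 read 7.98, 7.83 and 7.94, Q50 read 7.66, 8.23 and 6.69, Q91 read 9.11, 7.50 and 8.30, and Q111 read 8.51, 8.12 and 8.18. Of the 12 knock-in arrays only Q50 replicate 3 fell within the control range. In order the means were control 6.15 ± 0.66, knock-out 6.38 ± 0.59, Q50 7.52 ± 0.78, Q20 7.92 ± 0.08, Q111 8.27 ± 0.21 and Q91 8.30 ± 0.80 (SD), with overlap between all neighbours except Q20 and Q111. The differences from control were 1.77 (SE 0.40, limma adjusted p = 0.00306) in Q20, 1.37 (SE 0.40, 0.0392) in Q50, 2.15 (SE 0.40, 6.51e-04) in Q91 and 2.12 (SE 0.40, 6.49e-04) in Q111. Q91 was 4.44-fold above control. The Q50 call was lost when any 1 of control replicates 3 to 6 or Q50 replicates 1 and 2 was left out (1.02 to 1.34, adjusted p 0.0601 to 0.191). In the knock-out the difference was 0.23 (SE 0.33, adjusted p = 0.705).

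Foxd3 was not called in the knock-out or in any line against control. Control arrays read 6.23 to 7.54 (median 6.85) and knock-out arrays 6.02 to 7.15 (median 6.48). Q20 read 5.69, 6.08 and 6.34, Q50 read 6.60, 5.84 and 8.11, Q91 read 6.74, 6.33 and 6.37, and Q111 read 5.99, 6.58 and 6.83. The highest of the 24 arrays was Q50 replicate 3, the array with the large Actb difference, and the lowest was Q20 replicate 1. Every pair of groups overlapped. The Q20 mean was 6.04 ± 0.33 (SD, n = 3) and the other group means lay between 6.47 and 6.85. The largest difference from control was that of Q20, -0.81 (SE 0.37, limma adjusted p = 0.113), with -0.25 (0.634) in the knock-out, 0.00 (0.998) in Q50, -0.37 (0.525) in Q91 and -0.38 (0.486) in Q111. Without Q50 replicate 3 the Q20 difference of -0.81 passed (adjusted p = 0.0393), as did the mean of the lines against control (-0.55, 0.0440). With array weights both passed too, at -0.95 (adjusted p = 0.00926) and -0.63 (0.0129). Array weights raised the calls over all probe sets as well, from 25.2% to 40.5% in Q20 and from 33.2% to 46.7% for the mean of the lines.

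Fgf5, the ligand of the set, was at the low end of the scale in all control and knock-out arrays and well above it in 9 of the 12 knock-in arrays. Controls read 2.00 to 2.15 (median 2.07) and knock-outs 2.03 to 2.11 (median 2.07). Q20 read 4.50, 4.75 and 4.63, Q50 read 2.18, 4.68 and 2.03, Q91 read 5.64, 2.22 and 3.76, and Q111 read 6.37, 5.51 and 4.86. Q50 replicates 1 and 3 and Q91 replicate 2 stayed close to the control values, and every other knock-in array read 3.76 or more. The Q111 difference was 3.50 (SE 0.53, limma adjusted p = 8.78e-05), that of Q20 2.55 (SE 0.53, 0.00158) and that of Q91 1.79 (SE 0.53, 0.0186). Q50 at 0.88 (0.312) and the knock-out at -0.01 (0.993) were not called. Fgf5 passed the filter only through knock-in arrays, so its p-values are given as a description. Without Q91 replicate 1 the Q91 difference was 0.91 (adjusted p = 0.196). The Q50 difference was 0.03 without Q50 replicate 2, 1.35 without replicate 3, and 1.64 with a call (adjusted p = 0.0217) under array weights. Only 3 arrays, Q91 replicate 1 and Q111 replicates 1 and 2, reached 5, and with all values below 5 raised to 5 the differences were 0.00 in Q20 and 0.21 (adjusted p = 0.447) in Q91. The weaker Fgf5 probe set, below the filter on every array, was higher in Q111 by 1.06 (adjusted p = 0.00226) when all probe sets were tested without a filter. In bulk arrays, fewer cells that express a gene and less RNA per cell cannot be told apart.

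**Figure D3:**
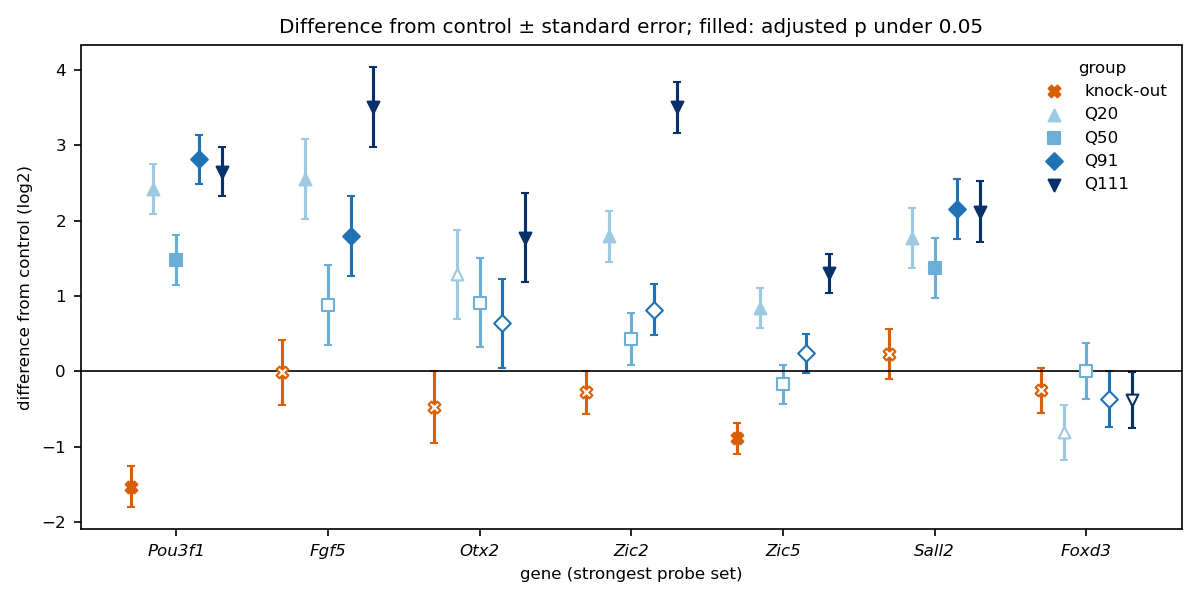
The plot gives the log2 difference from control (vertical axis, bars are the standard error of the limma fit) of each gene's strongest probe set in the knock-out and the 4 knock-in lines, with filled symbols where the adjusted p is under 0.05. Pou3f1 and Sall2 are filled in all 4 lines, Fgf5 in Q20, Q91 and Q111, Zic2 and Zic5 in Q20 and Q111, and Otx2 in Q111. In the knock-out Pou3f1 and Zic5 are filled, and Foxd3 is filled nowhere. Fgf5 and Zic2 passed the filter only through knock-in arrays, so their filled symbols are a description.

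Of the 10 tested probe sets, 5 were called in the knock-out, all lower and all of Pou3f1 and Zic5, where 7.17% of all probe sets were called lower. Q20 had 8 called, Q50 3, Q91 4 and Q111 9, all higher. Among all tested probe sets 16.2% were called higher in Q20, 5.70% in Q50, 12.7% in Q91 and 16.2% in Q111. These comparisons share the 6 control arrays, and Fgf5 and Zic2 entered only through the lines where they are high, so the counts are given as a description. The split of all calls into higher and lower depended on the scaling: Q20 had 2921 higher and 1618 lower as deposited, 2395 and 2735 after quantile normalization and 2205 and 2827 after median centring. For Q50 these were 1024 and 414, 727 and 761, and 673 and 724, for Q91 2281 and 1707, 2022 and 2326, and 1854 and 2424, and for Q111 2909 and 1706, 2444 and 3007, and 2200 and 3161. Median centring moved the median of all probe sets from 0.01 to -0.11 in Q111 and from 0.02 to -0.09 in Q20, and no called difference of the 7 genes changed sign under either scaling. For the mean of the lines against control, the call of Zic5 was lost under both scalings (0.48, adjusted p = 0.0520, and 0.46, 0.0649) and that of Otx2 under median centring (1.06, 0.0505).

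Set directly against the mean of the 4 lines, the knock-out was lower for 9 of the 10 tested probe sets, with 26.6% of all probe sets called lower. No control array enters these differences, but all 24 arrays set the estimate of spread behind the p-values. Fgf5 and Zic2, which passed the filter only through knock-in arrays, are 2 of the 9, so this count and the p-values of these genes are a description. The differences were -3.87 (SE 0.23, limma adjusted p = 1.75e-10) for Pou3f1, -2.19 (7.03e-05) for Fgf5, -1.92 (2.42e-06) for Zic2, -1.62 (0.00306) for Otx2, -1.62 (9.05e-05) for Sall2 and -1.44 (2.39e-06) for Zic5. Pou3f1 was 14.6-fold lower. The values of Fgf5 and Zic2 in the knock-out are at the dim end of the scale, and with values below 5 raised to 5 Fgf5 differed by -0.21 (adjusted p = 0.186), without a call. With replicates 1 to 3 of every group Otx2 was at -1.18 (adjusted p = 0.125). Foxd3 differed by 0.13 (SE 0.26, adjusted p = 0.698). The mean of the lines stood above control for the same 6 genes, by 2.34 for Pou3f1, 2.18 for Fgf5, 1.85 for Sall2, 1.64 for Zic2, 1.15 for Otx2 and 0.55 for Zic5, where 20.1% of all probe sets were called higher. With values below 5 raised to 5, Fgf5 was 0.21 above control (adjusted p = 0.217). The call of Zic5 (limma adjusted p = 0.0242) was lost without a filter (0.0570), with replicates 1 to 3 (0.126) or 4 to 6 (0.201) and without control replicate 6 (0.48, 0.0656). The call of Otx2 in that comparison (limma adjusted p = 0.0368) was lost in 10 of 24 fits that left out 1 array, with values of 0.96 to 1.40 over all 24.

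The lines were also compared with each other. A limma F-test over the 12 knock-in arrays called 0 of the 10 probe sets and 0.167% of all. At an unadjusted p under 0.05 were 6 probe sets, Zic2 (6.61e-04), both Pou3f1 probe sets (0.00280 and 0.00348) and the 3 Zic5 probe sets (0.00211 to 0.00960). Their adjusted p-values in this F-test were 0.0929 for Zic2, 0.135 and 0.146 for Pou3f1 and 0.121 to 0.198 for Zic5. The F-test called 4 of these probe sets without Q91 replicate 1, among them Zic2 (adjusted p = 0.0108) and Zic5 (0.0412), and 2 without Q50 replicate 2, among them Pou3f1 (0.0192). A slope on the repeat number of the longer allele was called for 0 of the 10 by limma and for 0.0445% of all probe sets, with unadjusted p-values of 0.0839 to 0.686, so that 0 were under 0.05 unadjusted as well. For Zic2 it was 1.63 (SE 0.93) per 100 repeats and for Pou3f1 0.71 (SE 0.43). The line with the shortest expansion, Q20, exceeded Q50 in the means of Pou3f1, Fgf5, Otx2, Zic2, Zic5 and Sall2. With each line at its own repeat number, the line and the length of the tract cannot be told apart.

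Within the lines, the same arrays were high or low for several genes. Q50 replicate 2 had the highest Pou3f1, Fgf5, Zic2, Zic5 and Sall2 of its line, and Q50 replicate 3 the lowest of these and of Otx2. Q91 replicate 1 was highest and replicate 2 lowest in Fgf5, Otx2, Zic2, Zic5, Sall2 and Foxd3, with ranges of 3.42 for Fgf5, 3.48 for Otx2 and 0.41 for Foxd3. On the strongest Pou3f1 probe set the 3 Q91 arrays spanned 0.23, with replicates 1 and 2 level. On the second they read 10.11, 9.43 and 9.64, so that replicate 1 was highest and replicate 2 lowest there as well. Deviations from the line means over the 12 knock-in arrays correlated at r = 0.97 between Zic5 and Sall2, 0.92 between Zic5 and Fgf5, 0.89 between Fgf5 and Sall2 and 0.83 between Otx2 and Zic5. Without the 2 arrays farthest from the middle these were 0.95, 0.82, 0.76 and 0.60. The correlations of Pou3f1 with Zic5 (0.54) and Sall2 (0.59) came to 0.11 and 0.05 without Q50 replicates 2 and 3. These arrays share their line, label and normalization, so the correlations are descriptions. Q50 replicate 3 also carried the large Actb difference, and its part in these patterns was not tested.

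**Figure D4:**
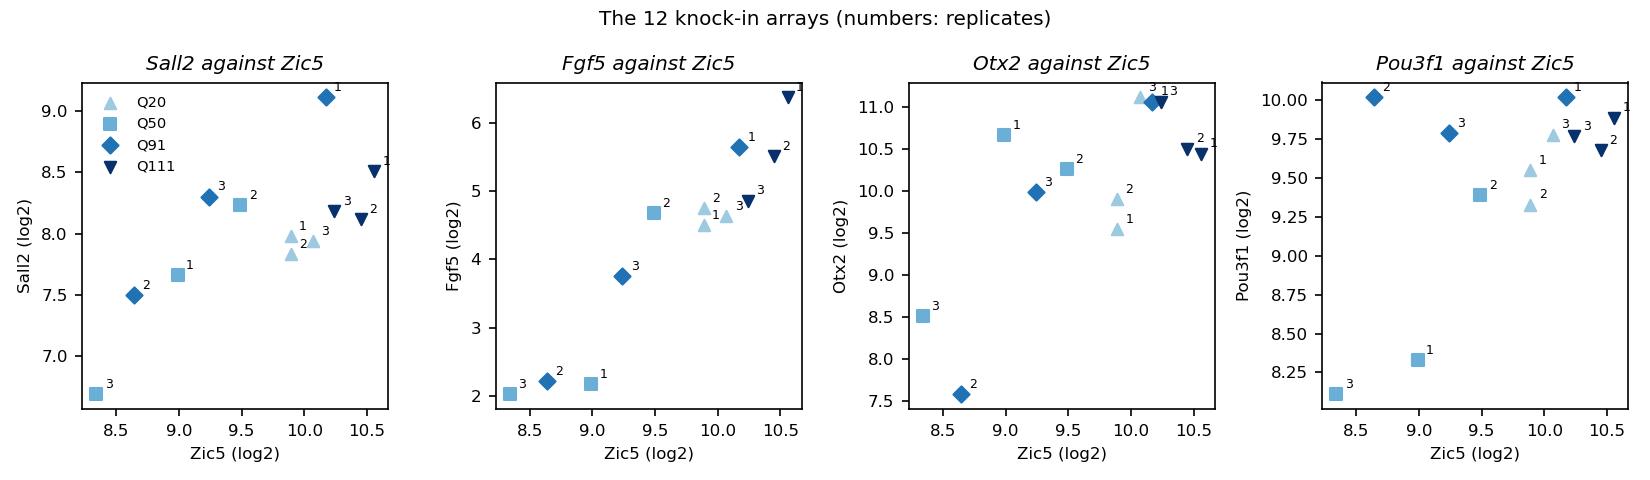
Each panel plots the log2 expression of Sall2, Fgf5, Otx2 or Pou3f1 (vertical axis) against that of Zic5 (horizontal axis) on the 12 knock-in arrays, with replicate numbers beside the points. Sall2 follows Zic5 within Q50 and Q91, while on the strongest Pou3f1 probe set the Q91 points stay between 9.79 and 10.02 across Zic5 values of 8.64 to 10.17.

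The control and knock-out groups each hold 6 arrays, numbered 1 to 6, and the knock-out difference was looked at in replicates 1 to 3 and 4 to 6, a split chosen after the data were seen. Sall2 was -0.59 in the first set and 1.05 in the second, a difference of 1.63 (SE 0.57, unadjusted p = 0.0102, limma adjusted p = 0.163). Otx2 was 0.39 and -1.33 (limma adjusted p of the difference 0.388). Neither gene passed the test in either set. Pou3f1 was -2.11 (limma adjusted p = 0.00111) and -0.95 (0.0882), and the difference between the sets did not pass (0.249). On its second probe set these were -1.55 (0.00209) and -0.34 (0.492), so the decrease was called in the first set alone. The difference between the sets was 1.21 there (SE 0.39, unadjusted p = 0.00575, limma adjusted p = 0.124). Zic5 was -0.83 (0.126) and -0.94 (0.0625) on its strongest probe set, without a call in either set. Of the other Zic5 probe sets, 1 was called in both (-1.31, limma adjusted p = 0.0368, and -1.31, 0.0273) and 1 in neither (-0.78, 0.175, and -1.03, 0.0509). The interaction was called for 1.64% of all probe sets, and the knock-out difference for 6.38% within replicates 1 to 3 and 10.3% within replicates 4 to 6. No label says whether the sets are batches.

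Other genes of the primed epiblast were taken from a list of 20, of which 19 were on the array under these names and 15 were tested. This list and those below were chosen with earlier results of these data known, so their counts are given as a description. In the lines 7 were higher and 2 lower in Q20, 4 and 0 in Q50, 8 and 2 in Q91, and 8 and 2 in Q111. The background over 9511 genes, 1 probe set each, was 16.3% higher and 10.4% lower in Q20, 5.08% and 2.43% in Q50, 13.4% and 11.3% in Q91, and 16.4% and 11.1% in Q111. The median of the 15 was 0.40, 0.38, 0.71 and 0.77, against medians over all genes of 0.01, 0.03, -0.01 and -0.01. In the knock-out 1 was higher and 4 were lower (7.55% and 8.80% of all genes), with a median of -0.39. Pim2, a serine/threonine kinase, followed Pou3f1 most closely: it was -2.29 in the knock-out (limma adjusted p = 2.38e-06), 2.43 in Q20, 0.96 in Q50, 2.76 in Q91 and 3.03 in Q111, all called. Dnmt3b, a de novo DNA methyltransferase, was -1.18 in the knock-out (limma adjusted p = 1.95e-04) and 1.16, 0.69, 1.40 and 1.31 in the lines, of which Q50 was not called (0.0505). Krt18, a simple-epithelium keratin, and Fzd2, a Wnt receptor, were higher in all 4 lines, by 2.48 to 4.86 and 1.66 to 3.86, and neither passed in the knock-out. Fzd2 was dim in control and the knock-out, with means of 3.94 and 3.55, against 5.60 to 7.80 in the lines. Its group means reached the filter level of 5 only in the lines, so its calls are given as a description. The 2 genes lower in Q20, Q91 and Q111 were Utf1 and Etv4, named after their values were seen. These counts were the same after quantile normalization and after median centring. The mean over the 19 genes lay at 7.65 to 7.93 on control arrays, 7.08 to 7.40 on knock-out arrays and 7.93 to 9.14 on knock-in arrays.

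Many naive pluripotency genes were lower in Q20, Q91 and Q111. Of 20 tested, 12 were lower and 1 higher in Q20, 3 and 2 in Q50, 11 and 0 in Q91 and 12 and 1 in Q111, with medians of -0.89, -0.21, -0.92 and -0.82. Over all genes, 10.4% were lower and 16.3% higher in Q20, and 2.43% and 5.08% in Q50. In Q91 these shares were 11.3% and 13.4%, and in Q111 11.1% and 16.4%. Quantile normalization and median centring gave 14 and 15 lower in Q20, and 4 lower and 0 higher in Q50. Klf4, a Krüppel-like factor of the naive network, was lower in all 4 lines (-1.09 to -1.38) and higher in the knock-out (0.58, limma adjusted p = 0.00928). Klf2, a related factor, was lower in all 4 as well (-0.66 to -1.48), and Zfp42, the marker Rex1, and Tcl1, a cofactor of Akt, in Q20, Q91 and Q111. The gene higher in Q20 and Q111 was Dppa3 (3.97 and 3.11), and those higher in Q50 were Dppa2 and Dppa4 (0.59 each). These genes were named after their values were seen. In the knock-out 1 naive gene was higher and 1 lower (7.55% and 8.80% of all genes), with a median of 0.09. The mean level of the 20 genes separated single arrays differently from the primed genes. Q111 replicate 3, at 11.37, was near the control range of 11.43 to 11.57 and Q111 replicates 1 and 2 were at 10.54 and 10.50, although all 3 had high Pou3f1, Zic2 and Zic5. Q91 replicate 2, lowest of its line in Fgf5, Otx2, Zic2, Zic5 and Sall2, also had the lowest naive mean of all arrays, 10.32. On that array Pou3f1 read 10.02 on its strongest probe set, level with replicate 1, and 9.43 on the second, the lowest of its line, and the mean of the 19 other primed genes was 9.03, within the range of its line.

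**Figure D5:**
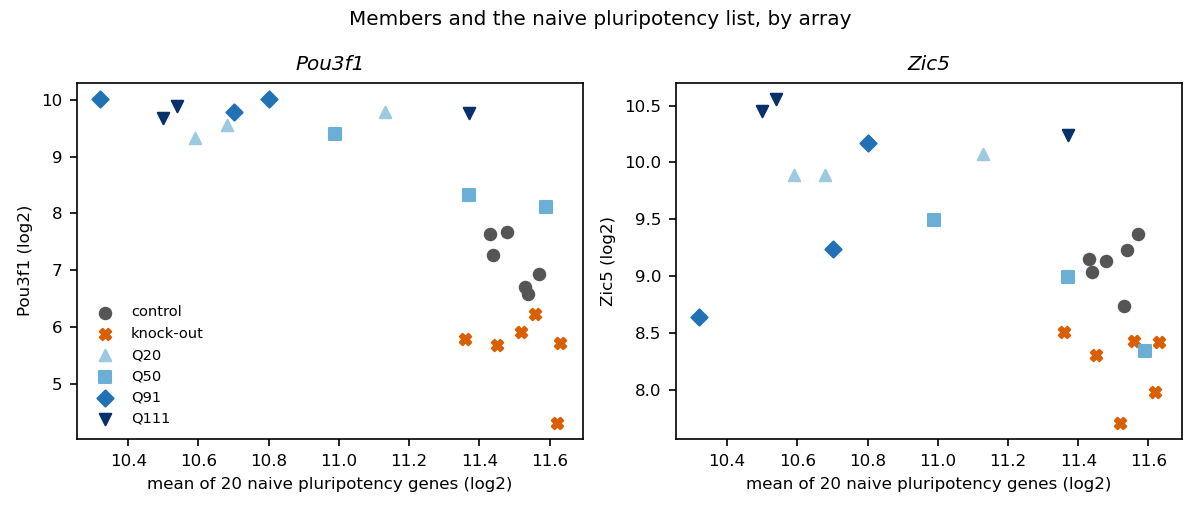
The panels plot Pou3f1 and Zic5 (vertical axis, log2 expression) against the mean log2 expression of 20 naive pluripotency genes (horizontal axis) for the 24 arrays, by group. Control and knock-out arrays sit together at 11.36 to 11.63 on the horizontal axis and apart on the vertical axis, and the knock-in arrays spread from 10.32 to 11.59.

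Of 10 core pluripotency genes, those kept on in both states, 1 was higher and 2 lower in the knock-out, in Q20 and in Q91, 1 and 0 in Q50, and 0 and 2 in Q111, beside the shares over all genes given above. Quantile normalization gave 3 lower in Q20 and 3 in Q111, and median centring 5 and 4. The mean of the 10 lay between 13.07 and 13.42 on all 24 arrays. Pou5f1 was not called in any comparison with control. Sox2 was lower in Q20, Q91 and Q111 (-0.44, -0.48 and -0.33). Lin28a, an RNA-binding protein, was lower in the knock-out (-0.58, limma adjusted p = 2.50e-05) and higher in Q20 and Q91 (0.27 and 0.35).

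Fgf5 signals through FGF receptors and the ERK kinases, and 15 of 18 genes of that pathway's receptors, feedback inhibitors and targets were tested. In Q20 5 were higher and 4 lower, in Q91 5 and 1, in Q111 5 and 3, in Q50 0 and 0, and in the knock-out 2 and 1. Over all genes, 16.3% were higher and 10.4% lower in Q20, and 13.4% and 11.3% in Q91. In Q111 these shares were 16.4% and 11.1%, in Q50 5.08% and 2.43%, and in the knock-out 7.55% and 8.80%. Under the other 2 scalings Q20 had 3 or 4 higher and 4 lower. Dusp4, a nuclear phosphatase of ERK, was higher in Q20 (3.34), Q91 (3.22) and Q111 (3.23), and Dusp5, a related phosphatase, in the same lines (1.39, 1.64 and 1.41). Etv4, an ETS factor turned on by FGF signalling, was lower in these lines (-2.00, -1.44 and -2.05), and Spry4, a feedback inhibitor, in Q20 (-1.26) and Q111 (-0.81).

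Close relatives of the 7 genes were mostly dim. Of 19 on the array, 14 did not pass the filter, among them Pou3f2, Pou3f3, Pou3f4, Otx1, Crx, Zic1, Zic4, Sall3, Foxd1, Foxd2, Foxd4 and Fgf8, with group means of 1.63 to 4.10. The 5 tested were Sall1, Sall4, Fgf4, Fgf15 and Fgf17. Sall1 was higher in the knock-out (0.47, limma adjusted p = 0.0235) and lower in Q20 (-0.64), Q91 (-1.08) and Q111 (-0.65). Fgf15 was higher in the knock-out (1.30, limma adjusted p = 0.00101) and in Q50 (1.10, 0.0241). Fgf4, the ligand naive cells make, was not called in any of the 5 comparisons, with changes of -0.72 to 0.38.

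Markers of other cell types that the cultures could hold were set beside these results. Over all 24 arrays the mean of the mesoderm and endoderm list lay between 2.53 and 3.00, that of the neuroectoderm list between 3.62 and 4.03 and that of the neural crest list between 4.03 and 4.82. Mesoderm and endoderm markers were near the floor: Sox17 read 1.91 to 1.96, Foxa2 1.68 to 1.73 and Gata4 2.45 to 2.55 as group means. Eomes alone of 13 was tested, and it was higher in Q20 (1.06), Q91 (1.14) and Q111 (1.62). Of 15 neuroectoderm markers 5 were tested. Nes was higher in Q20 (2.80), Q91 (3.28) and Q111 (3.31), while Sox1, which marks neural plate cells, was lower in the same lines (-2.25, -1.94 and -1.96). Tubb3 was lower in the knock-out (-1.16, limma adjusted p = 7.46e-04), and its differences in the lines did not pass. Of 12 neural crest markers 3 were tested, Sox10 stayed at 3.92 to 3.96, and Ets1 was higher in Q20, Q91 and Q111 (3.07 to 4.05). The trophoblast markers Cdx2 and Elf5 were at 2.07 to 3.16 in all groups, and of 6 tested of 11 Krt8, a keratin found in many epithelia, was higher in all 4 lines (2.62 to 4.99). Fgfr2, also in the FGF list, was higher in Q20 (1.22) and Q91 (1.31). Rhox6 was higher in Q50 alone (1.69), from a dim control mean of 4.76. The other tested trophoblast markers were not called in any line. Krt7, named after its values were seen, was not tested, and its group means ran from 3.07 in the knock-out to 5.12 in Q91. The trophoblast list mean was 4.63 to 4.92 in control, 4.27 to 4.64 in the knock-out and 5.03 to 5.83 in the lines. Among 13 fibroblast markers, which would show feeder cells, Dcn and Lum were at 2.19 to 2.43 in all groups. The fibroblast list mean lay between 3.23 and 3.39 in control and between 2.96 and 3.15 in the knock-out. Among the lines it spanned 3.03 to 3.17 for Q50, 3.37 to 3.89 for Q20, 3.26 to 4.07 for Q91 and 3.66 to 4.04 for Q111. Of 5 tested, Col1a1 was higher in Q20 (4.25), Q91 (3.74) and Q111 (4.67), Col1a2 in Q91 (1.33) and Q111 (2.40), and Col5a2 in Q20 (1.70) and Q111 (1.44). Thy1 was lower in the knock-out (-2.66, limma adjusted p = 0.00154), and its differences of -1.67 to -0.63 in the lines did not pass. Those of Pdgfrb, -1.05 to -0.27 in the lines, did not pass either. The control and knock-out means of Nes, Ets1, Col1a1, Col1a2 and Col5a2 lay between 2.49 and 3.91, below the filter level of 5. Their differences in the lines thus start from dim values. Genes this dim in control and the knock-out could pass the filter mainly through knock-in arrays, so these calls are given as a description. Whether cells of these kinds contributed to the differences above was not tested.

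The genes most like each of the 7 were taken as the 3 highest Pearson correlations over the 24 arrays, among genes past the filter. They were Pim2, Stk26 and Anxa6 for Pou3f1 (r = 0.98, 0.95 and 0.95), Irf1, Spcs2 and Adcy7 for Fgf5 (0.93, 0.92 and 0.92), and Skp1, Prrc1 and Tle1 for Otx2 (0.87, 0.87 and 0.86). Zic2 was most like Fgf5 (0.92), Fasn (0.91) and Nxf3 (0.91), and Zic5 most like Txndc17 (0.93), Tom1l1 (0.92) and Rnf145 (0.91). For Sall2 they were Nufip2, Ro60 and Sox3 (0.88, 0.88 and 0.87), and for Foxd3 Gys1, Gm38396 and Ssbp1 (0.76, 0.75 and 0.75). With Spearman's rank correlation Pim2 stayed the closest to Pou3f1 (0.96) and Sox3 came closest to Sall2 (0.89), while for Fgf5 and Zic2 all 3 genes were others. The 24 arrays fall into 6 groups, so these values mainly follow the group means and carry no test.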

How the data were processed

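Total RNA of 24 samples was hybridised to 1-colour Affymetrix arrays. The data analysed are the deposited log2 values of 45101 probe sets, for which the submitters' processing notes name GCRMA. This method adjusts background by probe sequence and normalizes the arrays against each other, which compresses differences between dim probe sets. No version is given. Groups followed titles and genotypes. After removal of 64 AFFX controls, 17980 of 45037 probe sets (39.9%) had a value of 5 or more on at least 3 arrays and were tested.

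All 24 arrays entered a limma fit (limma 3.58.1, R 4.3.3) with 1 mean for each group (18 residual degrees of freedom). The F-test and the slope used the 12 knock-in arrays. Tests are two-sided and were tested on simulated data. Exact permutation tests over arrays were run for single values. Their smallest possible p is 0.00216 for 6 arrays against 6 and 0.0119 for 6 against 3, reached wherever groups did not overlap in the direction of the difference. The number of arrays limits the precision.

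The platform annotation gave 1 gene for 34945 probe sets, several for 932 and none here for 9160. The genes and lists were chosen with earlier results of these data known. Named genes were all probe sets of the 7 genes, for each the 3 genes most correlated with it, up to 4 of each list by smallest p beside its defining markers, relatives, and Htt. Some genes that went against their list, and Krt7, were named after their values were seen. Deviations from the group means of same-numbered arrays correlated at -0.41 to 0.46, over 0.1 in 18 of 48 pairs. For no group set against control were all pairs over 0.1. Among the lines all 3 pairs were over 0.1 for Q20 with Q111 (0.39 to 0.46) and Q50 with Q91 (0.20 to 0.41), and not for the other 4 pairings of lines, so the fits reported have no block. Alternatives were scaling, filter, samples, replicate block, array weights, variance trend, chromosome centring and each array left out. Added after seeing the data were replicates 4 to 6 alone, the comparison of the replicate sets and a floor at 5.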

Additional observations from a re-analysis of the deposited data

Results flagged for a closer look

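Of 22 groups of 6 arrays in which the lowest and highest array were looked at, 2 held an array far from the rest, and chance gives about 1 in 20. Pou3f1 read 4.31 on knock-out replicate 1, and the next knock-out array read 5.68. Without that array the knock-out difference was -1.27. Otx2 read 7.19 on knock-out replicate 4, and the next read 8.38. Without it the knock-out difference of Otx2 was -0.22.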

How the results depend on the processing

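Depth of signal is the limit for Fgf5 and Zic2, whose control values lie under the filter level. Of the alternatives in which a value or call was compared, 2246 kept direction and call, 64 lost the call, 14 gained one and 23 turned in sign, and no called value turned in sign. The F-test and slope use no control or knock-out array, so leaving 1 of these out could not change them. Such fits, and uncalled results that stayed uncalled, are among the 2246. The count of called probe sets was 2 in the knock-out with replicates 1 to 3 of every group and 2 with replicates 4 to 6 of control and knock-out, in place of 5. Over all probe sets these settings called 4.66% and 5.83%, in place of 14.6%. With replicates 4 to 6 the count was 5 in Q20 in place of 8 and 5 for the mean of the lines in place of 9. There 9.72% and 13.1% of all probe sets were called, in place of 25.2% and 33.2%. The Q50 count of 3 was 1 with replicates 1 to 3, 1 with the replicate block and 1 to 3 when each array was left out, the lowest without Q50 replicate 2. The F-test count of 0 was 4 with array weights and 0 to 4 when each array was left out. Array weights also raised the F-test calls over all probe sets, from 0.167% to 9.96%. Other counts were within 1.5 times the main ones. In the knock-out, Fgf5 came to 0.00 with replicates 1 to 3, 0.03 with chromosome centring and -0.03 to 0.00 over the arrays left out, Otx2 to 0.39 with replicates 1 to 3, and Sall2 to -0.59 and -0.22 with those same 2 settings. In Q50, Foxd3 was -0.12 with quantile normalization, -0.08 with median centring, -0.09 with replicates 1 to 3, -0.18 with the replicate block, -0.57 with array weights, -0.07 with chromosome centring and -0.63 to 0.51 over the arrays left out. Zic5 in Q50 was 0.15 with array weights and -0.44 to 0.13 over the arrays left out, and Zic2 was -0.01 to 0.71. In Q91, Otx2 was -0.12 to 1.63 and Zic5 -0.17 to 0.60 over the arrays left out. Foxd3 in the knock-out against the lines was -0.13 with replicates 4 to 6, and its slope was -0.02 to 0.49 over the arrays left out. Other causes of these shifts were not tested. Same-numbered control and knock-out arrays correlated at -0.41 to -0.26 in every pair, which a limit of 0.1 does not pick up. Control and knock-in pairs correlated at -0.11 to 0.13. What a shared number means for these groups was not tested. The numbers may link Q20 with Q111 and Q50 with Q91, and the F-test and slope counts stayed 0 with the replicate block. The replicate block ended the calls of Zic5 in Q20 (0.82, adjusted p = 0.0645), Pou3f1 and Sall2 in Q50 (1.37, 0.0553 and 1.31, 0.133), Fgf5 in Q91 (1.77, 0.0637), Otx2 in Q111 (1.76, 0.0774) and of Otx2 and Zic5 for the mean of the lines. Without a filter, which tests 45037 probe sets, Zic5 in Q20 (0.0520), Sall2 in Q50 (0.0884) and Otx2 in Q111 (0.0733) missed the threshold of 0.05.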
